A study of Mus musculus with 12 samples.

Results

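The 10 genes described here are the Toll-like receptor genes Tlr1, Tlr2, Tlr3, Tlr4, Tlr6, Tlr7, Tlr8 and Tlr9 and the lipopolysaccharide (LPS) coreceptor genes Cd14 and Ly96, of 18193 genes measured. They were chosen by name, with earlier results of these data known. The value of a gene is that of its brightest probe set over all arrays, among the probe sets that the platform annotation assigns to that gene alone. The 10 genes had 16 such probe sets, and 7 of them had 1 each. Whole bone marrow of female C57BL/6 mice aged 6 weeks was cultured, and the cultures were given 1 nM 17β-estradiol (17βE), the main circulating estrogen, over 1 week or were left as untreated controls. From these cultures c-kit+ cells, called stem cells in the labels, and CD44+ cells, called stromal cells there, were collected and put on Affymetrix mouse arrays. The 4 groups were c-kit+ control, c-kit+ 17βE, CD44+ control and CD44+ 17βE, with 3 arrays each and 12 in all. The series addressed the effect of estrogen on expression in both fractions. The labels do not say whether replicates came from separate animals or cultures, so the p-values measure only the spread between these samples.

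Toll-like receptors are sensors of innate immunity that bind molecules of microbes. At the cell surface Tlr2 pairs with Tlr1 or Tlr6 and binds bacterial lipoproteins, and Tlr4 binds LPS together with Ly96 (MD-2), while Cd14 hands LPS and lipoproteins to the receptors. Tlr3, Tlr7, Tlr8 and Tlr9 lie in endosomes and bind nucleic acids. Most of them signal through the adaptor Myd88 to NF-κB, and macrophages of the marrow and other tissues are among the cells that carry many of them.

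All values are on the log2 scale of the deposited table, on which array medians lay between 4.75 and 4.84. Kit, the gene of the c-kit protein, was near background in both fractions, with 3.97 ± 0.10 (SD, n = 3) in c-kit+ control cells and 4.01 ± 0.21 in CD44+ control cells. The transcript thus did not bear out the name c-kit+, and the fractions are called here by their labels. Cd44 had group means from 11.93 to 12.33. Of 9 macrophage and monocyte markers measured, 7 lay above the background defined below on all 12 arrays, and the group means of Csf1r, the receptor for macrophage colony-stimulating factor, ran from 13.99 to 14.07. Cd163, another macrophage marker, was at background on all 12 arrays. Of 8 mesenchymal markers 3 lay above background on all arrays, and of 8 neutrophil markers and 7 dendritic cell markers 1 each. None of the B lineage, T and NK, stem and progenitor, mast, erythroid and endothelial markers did so on all 12 arrays. Cd34, a stem and progenitor marker, was above background on 10 arrays, with 6.60 ± 0.47 in c-kit+ control and 7.88 ± 0.59 in CD44+ control cells. In RNA from mixed cells, fewer cells of a type and less RNA per cell cannot be told apart.

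Since the mice were female, 14 probe sets of 7 Y-linked genes served as a measure of background. The highest of them lay between 6.13 and 6.37 on each array and was always 1 probe set of Sry. Tlr1, Tlr2, Tlr3, Tlr4, Tlr6, Tlr7, Cd14 and Ly96 were above that level on 12 of 12 arrays, Tlr9 on 1 and Tlr8 on 0. Without the Sry probe set, which was left out as a further check once the values were known, the other 13 reached at most 4.54, and Tlr9 lay above the highest of them on 12 arrays and Tlr8 on 9. Tlr8, a sensor of RNA, was thus at or near background in every group.

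The results turn mainly on Tlr2 and Tlr1, the receptors with a difference that passed the test. The 250 bases before a RefSeq start of each (GRCm38.p6) are therefore shown, 5′ to 3′ on the minus strand. The capitals in the Tlr2 sequence (chr3:83841609-83841858) mark 2 overlapping matches to the NF-κB consensus, from base 173 to base 163 before the start. Those in the Tlr1 sequence (chr5:64933559-64933808) mark the motif GAGGAAGT of PU.1, a transcription factor of the myeloid lineage, from base 23 to base 16 before the upstream of 2 Tlr1 starts. The annotated genes reach further, to base 83841824 for Tlr2 and 64933600 for Tlr1. Both marked stretches thus lie inside the annotated span of their gene, though before the starts used here.
Tlr2: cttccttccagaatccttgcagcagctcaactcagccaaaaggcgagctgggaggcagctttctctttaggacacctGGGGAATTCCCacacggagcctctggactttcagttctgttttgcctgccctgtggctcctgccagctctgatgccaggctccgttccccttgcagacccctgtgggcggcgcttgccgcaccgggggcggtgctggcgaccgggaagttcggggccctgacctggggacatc
Tlr1: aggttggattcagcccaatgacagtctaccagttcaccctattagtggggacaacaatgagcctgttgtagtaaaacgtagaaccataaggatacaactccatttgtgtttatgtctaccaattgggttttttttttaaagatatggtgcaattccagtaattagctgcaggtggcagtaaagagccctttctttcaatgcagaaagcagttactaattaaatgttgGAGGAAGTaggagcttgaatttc
Of the 10 genes 6 had a RefSeq promoter entry, with 8 starts, and 4 motifs were searched on both strands. The NF-κB consensus was found before 2 of the 8 starts, those of Tlr2 and Tlr3, and in 7.25% of all 32851 promoters of this length. GAGGAAGT was found before 1 start, in Tlr1, and in 2.44% of all promoters. The interferon-stimulated response element, searched as GAAA, any 2 bases and GAAA, was found before 1 start of Tlr6 (2 matches) and in 2.98% of all. The estrogen response element, searched as GGTCA, any 3 bases and TGACC, was found before none of the 8 starts and in 0.0639% of all promoters. Such matches describe letters in these windows and show no binding.

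Tlr2 was higher in 17βE than in control cultures on every array of both fractions. In CD44+ cells the control arrays read 11.61, 11.64 and 11.28 and the 17βE arrays 12.27, 12.50 and 12.27. In c-kit+ cells the control arrays read 11.86, 12.06 and 12.06 and the 17βE arrays 12.59, 12.71 and 12.50. The groups did not overlap in either fraction, and the lowest value of all belonged to replicate 3 of the CD44+ control arrays. In CD44+ cells Tlr2 rose by 0.83 (SE 0.12, 95% interval 0.57 to 1.10, 1.78-fold, adjusted p = 0.00873). It lost this call without replicate 2 of the CD44+ 17βE arrays (0.76, adjusted p = 0.0675). Replicate number was also used as a block over all 12 arrays. In CD44+ cells the adjusted p of Tlr2 was then 0.00572, and 101 of all genes passed in place of 53. The CD44+ arrays met the pairing criterion, but this block also joined arrays of groups that missed it. In c-kit+ cells the difference of Tlr2 was 0.60 (SE 0.12, 95% interval 0.34 to 0.87, 1.52-fold) and did not pass (adjusted p = 0.0938). It did pass after quantile normalization (0.62, adjusted p = 0.0345), with array weights (0.67, adjusted p = 0.0412) and with the replicate block (adjusted p = 0.0458). The c-kit+ arrays missed the pairing criterion of this block only in replicate 2 (r = 0.0916). In the fit without a block, Tlr2 in c-kit+ cells did not pass with any 1 array left out (adjusted p from 0.0558 to 0.527). Over both fractions, a contrast of the same arrays, the mean difference of Tlr2 was 0.72 (SE 0.086, 95% interval 0.53 to 0.90, 1.64-fold) and passed (adjusted p = 0.000862), as it did without any 1 of the 12 arrays (adjusted p from 0.000836 to 0.00471).

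Cd14, which binds LPS and passes it to Tlr4 and Ly96, was the other gene of the 10 that rose over both fractions. Its c-kit+ control arrays read 13.21, 13.07 and 13.16 and its c-kit+ 17βE arrays 13.46, 13.64 and 13.48. The CD44+ control arrays read 13.19, 13.16 and 12.89 and the CD44+ 17βE arrays 13.47, 13.58 and 13.62. Every 17βE array thus lay above every control array, also across the fractions, while the fractions themselves overlapped within each treatment. The mean difference was 0.43 (SE 0.076, 95% interval 0.26 to 0.59, 1.35-fold, adjusted p = 0.0148). Taken singly, the differences of 0.38 in c-kit+ cells (SE 0.11, adjusted p = 0.422) and 0.48 in CD44+ cells (SE 0.11, adjusted p = 0.125) did not pass. The mean lost its call without replicate 2 of the c-kit+ 17βE arrays (0.40, adjusted p = 0.0557) and without replicate 2 (0.42, adjusted p = 0.0530) or replicate 3 (0.41, adjusted p = 0.0575) of the CD44+ 17βE arrays.

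Tlr4, the receptor that Cd14 and Ly96 serve, showed no difference with 17βE that passed. It read 9.86, 9.91 and 9.85 on the c-kit+ control arrays and 9.97, 9.66 and 9.67 on the c-kit+ 17βE arrays. On the CD44+ control arrays it read 9.81, 9.69 and 9.36 and on the CD44+ 17βE arrays 9.52, 9.45 and 9.38. Treated and control arrays overlapped in both fractions. The differences were -0.11 in c-kit+ cells (95% interval -0.38 to 0.16, adjusted p = 0.999), -0.17 in CD44+ cells (95% interval -0.44 to 0.11, adjusted p = 0.949) and -0.14 over both (SE 0.090, adjusted p = 0.922). A second Tlr4 probe set above background on all arrays gave -0.00090 and -0.014.

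Ly96, the secreted partner of Tlr4 that holds the lipid part of LPS, ranged from 6.92 to 7.65 over the 12 arrays. Both of these extremes belonged to the c-kit+ fraction, and the 4 groups overlapped. Its differences with 17βE were 0.10 in c-kit+ cells (95% interval -0.26 to 0.46) and -0.061 in CD44+ cells (95% interval -0.42 to 0.30), and neither passed. The intervals leave room for a change of either sign.

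Tlr1 and Tlr6 encode the partners of Tlr2, and neither passed for 17βE. Tlr1 read 9.12, 8.96 and 8.88 on the c-kit+ control arrays and 9.06, 9.20 and 8.98 on the c-kit+ 17βE arrays, groups that overlapped. On the CD44+ arrays it read 8.45, 8.51 and 7.99 in control and 8.60, 8.89 and 8.79 in 17βE cultures. There the groups did not overlap, and control replicate 3 was again the lowest array. The differences were 0.087 in c-kit+ cells (SE 0.14, adjusted p = 0.999), 0.45 in CD44+ cells (SE 0.14, 95% interval 0.14 to 0.75, adjusted p = 0.517) and 0.27 over both (SE 0.10, adjusted p = 0.493). Without CD44+ control replicate 3 the difference in CD44+ cells was 0.28. This array was the lowest of its group for 7 of the 10 genes.

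Tlr6 read 7.53, 7.59 and 7.58 on the c-kit+ control arrays and 7.92, 7.93 and 7.88 on the c-kit+ 17βE arrays. These groups stood apart and had the smallest spread of the gene. On the CD44+ arrays it read 7.45, 7.26 and 7.37 in control and 7.43, 7.61 and 7.79 in 17βE cultures, and these groups overlapped through 17βE replicate 1. The differences were 0.35 in c-kit+ cells (SE 0.10, 95% interval 0.12 to 0.57, adjusted p = 0.525), 0.25 in CD44+ cells (SE 0.10, adjusted p = 0.853) and 0.30 over both (SE 0.074, adjusted p = 0.106). None of these passed.

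**Figure D1:**
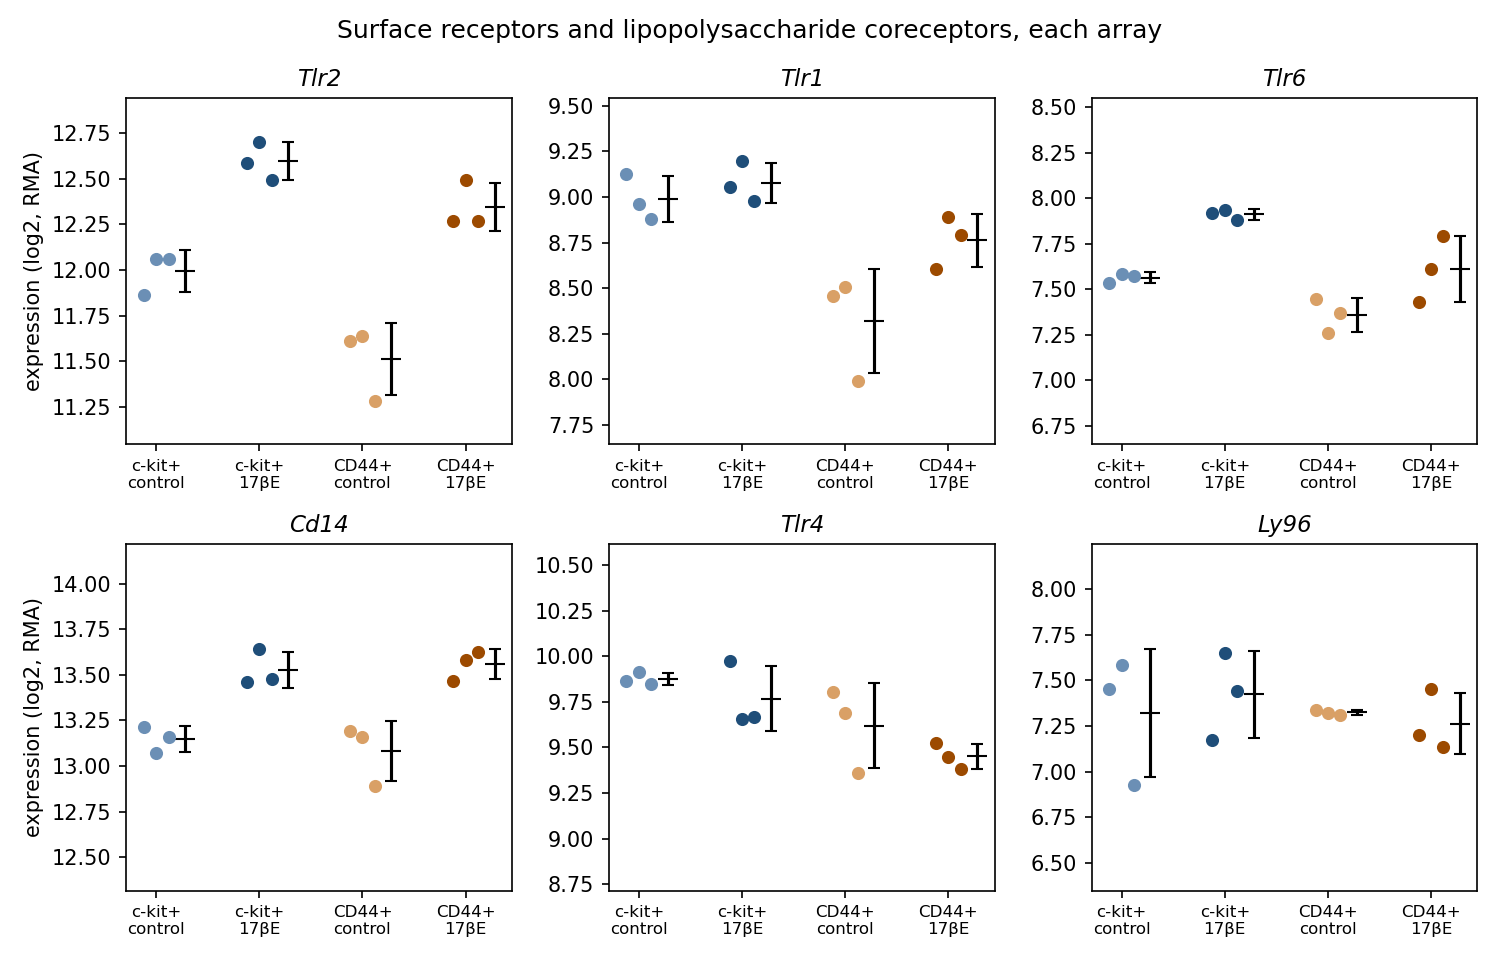
Log2 expression (vertical axis, with the same span in every panel) of Tlr2, Tlr1, Tlr6, Cd14, Tlr4 and Ly96 on each of the 12 arrays, by group, with 1 point per array and a bar for the mean and SD of 3 arrays. Tlr2 and Cd14 lie higher on all 17βE arrays than on the control arrays of the same fraction, while the Tlr4 and Ly96 groups overlap.

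The endosomal receptors showed no difference with 17βE that passed. Tlr7, a receptor for single-stranded RNA, read 9.06, 9.02 and 9.38 on c-kit+ control, 9.29, 9.14 and 9.40 on c-kit+ 17βE, 8.88, 8.74 and 8.66 on CD44+ control and 8.82, 8.97 and 9.12 on CD44+ 17βE arrays. Treated and control arrays overlapped in both fractions. Its differences were 0.13 in c-kit+ cells (adjusted p = 0.999), 0.21 in CD44+ cells (adjusted p = 0.949) and 0.17 over both (SE 0.089, adjusted p = 0.814). The 2 other Tlr7 probe sets gave 0.35 and 0.21 in c-kit+ cells and 0.29 and 0.19 in CD44+ cells, the same sign throughout. For both of them the c-kit+ groups did not overlap, with 6.41 to 6.63 in control and 6.87 to 6.95 in 17βE cultures for one and 6.76 to 7.06 and 7.09 to 7.18 for the other. In CD44+ cells the groups of the first stood apart as well (5.94 to 6.33 and 6.38 to 6.55), and those of the second overlapped. These probe sets were dimmer than the one tested, and their differences carry no test. The first was above the highest Y-linked probe set on 11 of 12 arrays, and its CD44+ control values lay near that background level.

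Tlr3, which binds double-stranded RNA and signals through the adaptor Ticam1, had its highest value, 8.52, on replicate 3 of the c-kit+ control arrays, where the other arrays read 7.56 and 7.72. The c-kit+ 17βE arrays read 7.65, 7.78 and 7.93, within the span of those controls. Its differences were -0.15 in c-kit+ cells (95% interval -0.58 to 0.28) and 0.093 in CD44+ cells (95% interval -0.34 to 0.52), and neither passed. Tlr9, a receptor for unmethylated DNA, ranged from 5.74 to 6.18 over all arrays, with differences of -0.033 and 0.0029. Tlr8 ranged from 4.17 to 4.71, with differences of 0.031 and 0.042. For Tlr8 and Tlr9 every pair of groups that are neighbours in the order of the means overlapped.

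**Figure D2:**
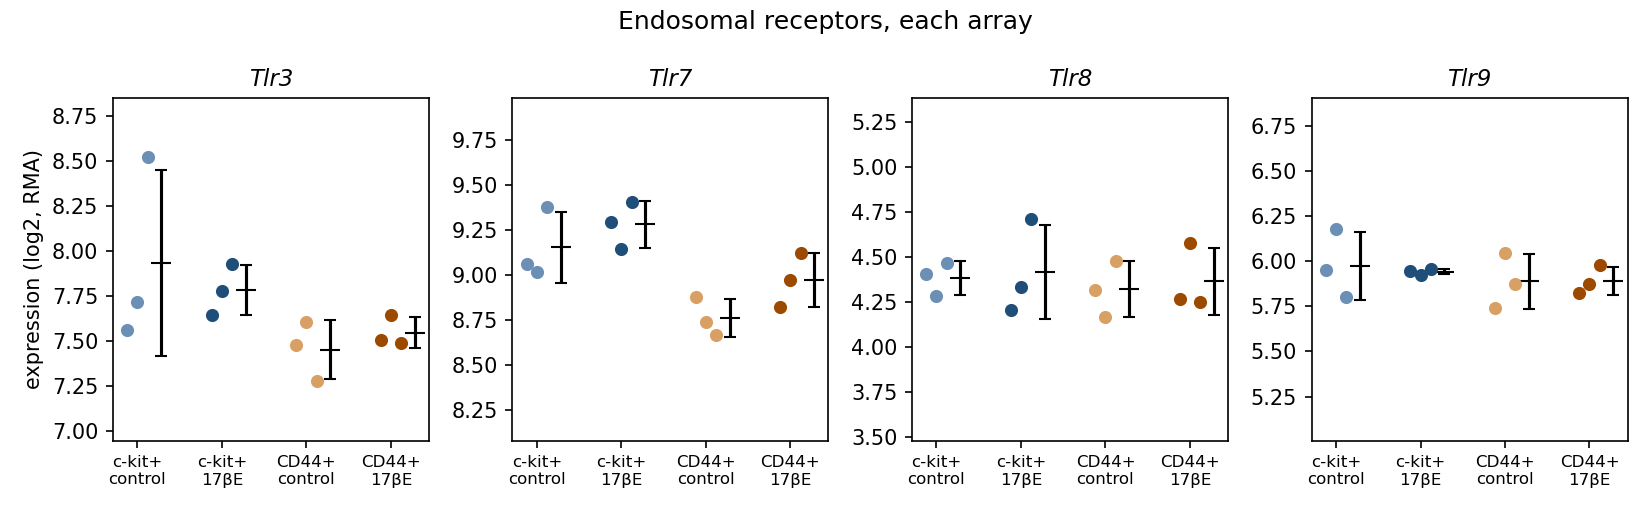
Log2 expression (vertical axis, with the same span in every panel) of Tlr3, Tlr7, Tlr8 and Tlr9 on each of the 12 arrays, by group, with 1 point per array and a bar for the mean and SD of 3 arrays. Control and 17βE arrays of a fraction overlap in all 4 panels, and Tlr3 has 1 c-kit+ control array at 8.52.

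Counted over the 10 genes, 0 passed in c-kit+ cells, where 0.176% of all genes tested passed as higher, and 3 of the 10 (Tlr2, Cd14 and Tlr6) had an unadjusted p under 0.05, against 4.47% of all genes. The same 3 had groups that did not overlap, all higher with 17βE, against 5.34% of all genes. In CD44+ cells 1 of the 10 passed, Tlr2, against 0.28% of all genes that passed as higher, and Tlr2, Cd14 and Tlr1 were higher without overlap, against 6.75%. Over both fractions 2 of the 10 rose, against 0.863% of all genes that passed as higher. The median difference of the 10 genes was 0.095 in c-kit+ and 0.15 in CD44+ cells, and that of all genes 0.016 and 0.010. No gene of the 10 passed as lower. Of all genes 0.0055% did so in c-kit+ cells, 0.011% in CD44+ cells and 0.0879% over both fractions, so that count says little about the 10 genes. None of the 9 macrophage markers passed for 17βE in either fraction, with medians of -0.013 and 0.10, and their summed linear signal ran from 60744 to 64333 on c-kit+ control and from 59048 to 63837 on c-kit+ 17βE arrays. On CD44+ arrays it ran from 47647 to 58120 in control and from 54130 to 59493 in 17βE cultures, and its part in the CD44+ differences was not tested.

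**Figure D3:**
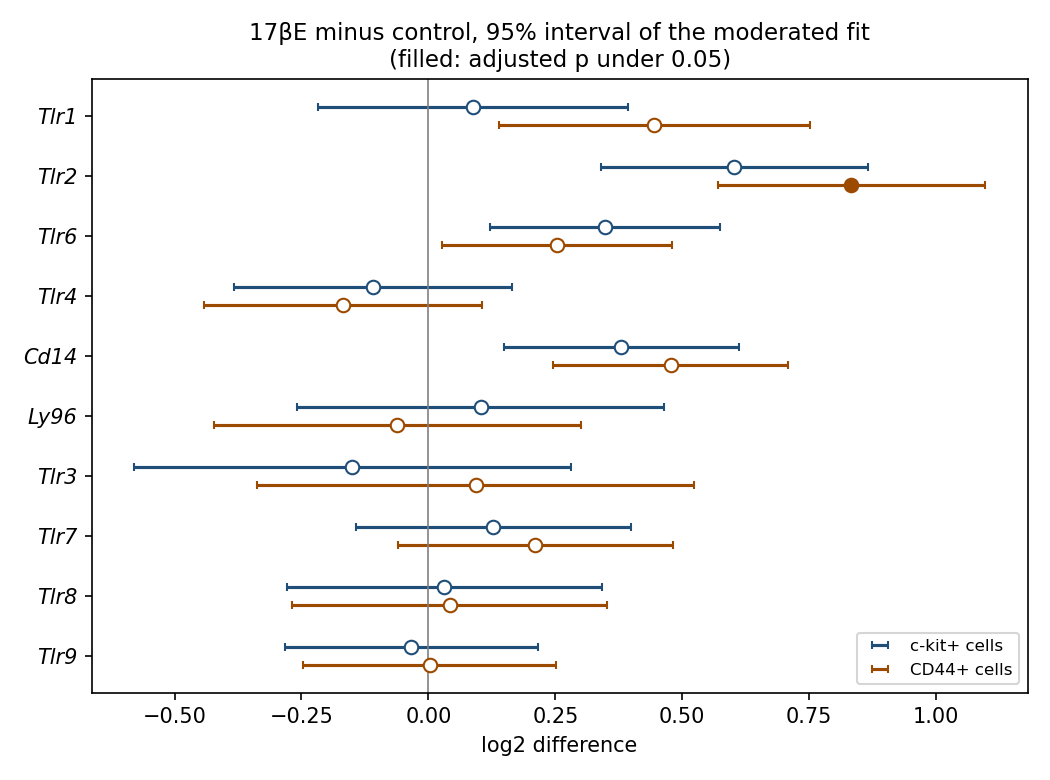
Log2 difference between 17βE and control cultures (horizontal axis) for the 10 genes in c-kit+ and CD44+ cells, with the 95% interval of the moderated fit. The only filled point, which marks an adjusted p under 0.05, is Tlr2 in CD44+ cells at 0.83.

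Whether the effect of 17βE differed between the fractions was tested directly. For 0 of the 10 genes did the difference of effects pass, nor did it for any of all genes tested (0%), and none of the 10 had an unadjusted p under 0.05, against 296 of all genes. For Tlr1 the effect in c-kit+ cells minus that in CD44+ cells was -0.36 (95% interval -0.79 to 0.074). It was -0.23 for Tlr2 (95% interval -0.60 to 0.14), -0.097 for Cd14 (95% interval -0.43 to 0.23) and 0.093 for Tlr6 (95% interval -0.23 to 0.41), each with an adjusted p of 1.0. These intervals hold differences of either sign, so the test does not show that the fractions responded alike.

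Between the fractions, the 6 receptor genes above background on all arrays (Tlr1, Tlr2, Tlr3, Tlr4, Tlr6 and Tlr7) had higher means in c-kit+ than in CD44+ cells within both treatments. In control cultures Tlr1 was higher in c-kit+ cells by 0.67 (SE 0.14, 95% interval 0.37 to 0.98, 1.59-fold, adjusted p = 0.0245), the 1 of the 10 genes that passed. Of all genes 0.539% passed as higher in c-kit+ cells, and 2.30% passed in either direction. Tlr1 lost the call without replicate 1 (0.60, adjusted p = 0.107) or replicate 2 (0.68, adjusted p = 0.0553) of the c-kit+ control arrays, without replicate 3 of the CD44+ control arrays (0.51, adjusted p = 0.0895) and in a fit of these 6 arrays alone (adjusted p = 0.144). The CD44+ control arrays also enter the CD44+ comparison with 17βE, so these comparisons are not independent of each other. Tlr2 had a difference of 0.48 (SE 0.12, adjusted p = 0.0609), Tlr3 one of 0.48 (adjusted p = 0.301), Tlr7 one of 0.39 (adjusted p = 0.157), Tlr4 one of 0.26 (adjusted p = 0.400) and Tlr6 one of 0.21 (adjusted p = 0.421). Groups did not overlap for Tlr1, Tlr2, Tlr4, Tlr6 and Tlr7, which is 5 of the 10, all higher in c-kit+ cells, against 7.41% of all genes. Cd14 (0.065), Tlr9 (0.088), Tlr8 (0.062) and Ly96 (-0.0035) had smaller differences and overlapping groups.

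In 17βE cultures none of the 10 genes passed between the fractions, while of all genes 0.324% passed as higher in c-kit+ cells and 2.65% passed in either direction. Of the 10 genes 4 had an unadjusted p under 0.05, against 9.77% of all genes. The values of c-kit+ minus CD44+ cells were 0.32 for Tlr4 (adjusted p = 0.381), 0.31 for Tlr1 (adjusted p = 0.483), 0.31 for Tlr7 (adjusted p = 0.397) and 0.30 for Tlr6 (adjusted p = 0.255). They were 0.25 for Tlr2 (adjusted p = 0.547) and 0.24 for Tlr3 (adjusted p = 0.842). Groups did not overlap for Tlr1, Tlr3, Tlr4, Tlr6 and Tlr7, again 5 of the 10 and all higher in c-kit+ cells, against 10.0% of all genes. The median over the 10 genes was 0.23 in control and 0.25 in 17βE cultures, and over all genes 0.0052 and 0.026. All 3 Tlr7 probe sets kept the sign (0.39, 0.35 and 0.27 in control cultures), and the second Tlr4 probe set gave 0.078 in control and 0.092 in 17βE cultures.

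**Figure D4:**
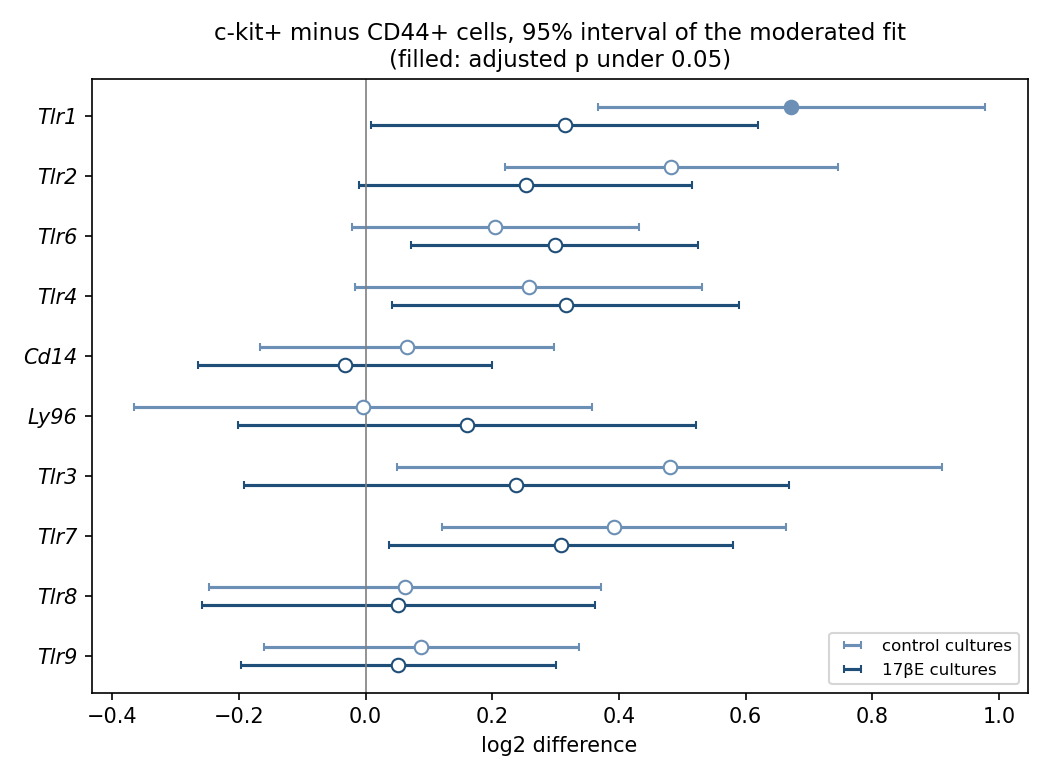
Log2 difference between c-kit+ and CD44+ cells (horizontal axis) for the 10 genes in control and in 17βE cultures, with the 95% interval of the moderated fit. The only filled point, which marks an adjusted p under 0.05, is Tlr1 in control cultures at 0.67.

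Cell type markers and RNA quality moved with the fraction as well. Of 9 macrophage markers 3 were higher in c-kit+ cells in control cultures, namely Mertk (1.02), Fcgr1 (0.71) and Mrc1 (0.66), and 2 of 9 in 17βE cultures. Of 8 mesenchymal markers 5 were lower in both, with Col1a2 at -3.37 in control cultures, and their summed linear signal was 462 to 699 on c-kit+ control and 2165 to 5801 on CD44+ control arrays. In 17βE cultures these sums were 451 to 872 and 3067 to 6843. Of 6 B lineage markers 1, Ebf1, was lower in c-kit+ cells in both treatments (-1.46 in control and -1.95 in 17βE cultures). Of 6 stem and progenitor markers 1, Cd34, was lower in c-kit+ cells in 17βE cultures (-1.43). All 8 neutrophil markers were lower in c-kit+ control cells, though none passed. As lower in c-kit+ cells, 1.76% of all genes passed in control and 2.33% in 17βE cultures. The signal of Gapdh at the 3′ end minus that at the 5′ end, which grows as RNA is degraded or shortened by amplification, was 4.62 to 5.35 on c-kit+ control and 2.83 to 4.14 on CD44+ control arrays, and 4.23 to 6.17 and 3.32 to 4.31 on the 17βE arrays. By treatment these ranges overlapped within each fraction, and by fraction those of the control arrays did not. The same measure of Actb stood apart between the fractions in both treatments, with 2.48 to 3.98 on c-kit+ control, 1.52 to 2.11 on CD44+ control, 2.34 to 4.68 on c-kit+ 17βE and 1.69 to 2.14 on CD44+ 17βE arrays. The part of markers and RNA quality in the receptor differences was not tested.

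The order of the 4 group means differed between genes. For Tlr1 and Tlr7 it ran from c-kit+ 17βE through c-kit+ control and CD44+ 17βE to CD44+ control, and the only neighbours that did not overlap were the CD44+ groups for Tlr1. For Tlr2 and Tlr6 it ran from c-kit+ 17βE through CD44+ 17βE and c-kit+ control to CD44+ control. There c-kit+ 17βE (12.60 ± 0.10, SD, n = 3) and CD44+ 17βE (12.34 ± 0.13) overlapped for Tlr2, and the steps down to c-kit+ control (11.99 ± 0.11) and CD44+ control (11.51 ± 0.20) did not. For Tlr6 the CD44+ 17βE group (7.61 ± 0.18) overlapped c-kit+ control (7.56 ± 0.03), and the other neighbours stood apart. For Cd14 both 17βE groups (13.56 ± 0.08 in CD44+ and 13.53 ± 0.10 in c-kit+ cells) stood above both control groups (13.15 ± 0.07 in c-kit+ and 13.08 ± 0.16 in CD44+ cells). Tlr4 was in the order c-kit+ control (9.88 ± 0.03), c-kit+ 17βE (9.77 ± 0.18), CD44+ control (9.62 ± 0.23) and CD44+ 17βE (9.45 ± 0.07), with an overlap at each step.

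Over all 12 arrays Tlr2 followed Cd14 and Tlr6 more closely than it did Tlr4. Pearson's r, given as a description over arrays that share the 4 groups, was 0.869 for Tlr2 with Cd14, 0.836 with Tlr6, 0.788 with Tlr1 and 0.091 with Tlr4. For Cd14 with Tlr4 it was -0.226, and for Tlr6 with Tlr7 0.793. The genes most like Tlr2 of all measured were Mefv, which encodes pyrin (r = 0.958), Pim3 (0.948), N4bp1 (0.948), Cd40, a costimulatory receptor (0.940), and Igsf6 (0.939). Those most like Cd14 were Il1b, which encodes interleukin 1β (0.967), Icam1, an adhesion molecule (0.962), Gas2l3 (0.954), Cd69 (0.954) and Zc3h12c (0.953). Those most like Tlr1 were Plgrkt (0.973), Serp1 (0.952), 4833420G17Rik (0.949), Naip5, a sensor of bacterial flagellin (0.940), and Susd6 (0.936).

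Other genes of the pathway were taken in 8 lists by role, with 78 of 86 genes measured. The lists were chosen with earlier results of these data known, so the shares below are a description and no test of the pathway. Over both fractions 21 of the 78 rose and 0 fell, against 0.863% of all genes that passed as higher, and their median was 0.21, against 0.015 for all genes. All 21 rises lay in the lists of inhibitors, of transcription factors and of genes that signalling induces. In c-kit+ cells 10 rose, against 0.176% of all genes, and in CD44+ cells 9, against 0.28%, and none fell in either. Of all genes only 0.0055% and 0.011% passed there as lower, and 0.0879% over both fractions, so the absence of falls says little about the 78 genes. None of 4 adaptors passed over both fractions, and Myd88 had 0.23 (adjusted p = 0.328). None of 14 kinases, ubiquitin ligases and partners passed, and Peli1, a ubiquitin ligase of the pathway, had 0.55 (adjusted p = 0.0590). Peli1 passed with the mean of its probe sets (0.76, adjusted p = 0.00185), among the brighter genes alone (adjusted p = 0.0436), with array weights (0.41, adjusted p = 0.0439), with the replicate block (adjusted p = 0.0495) and without replicate 2 of the CD44+ control arrays (0.62, adjusted p = 0.0371). None of 7 genes of receptor folding and trafficking did, and Unc93b1, which carries the endosomal receptors to their place, had 0.26 (adjusted p = 0.517). Neither did any of 7 genes of ligand transfer or of 3 other Toll-like receptors, of which Tlr13, a sensor of bacterial RNA, had 0.16 (adjusted p = 0.923).

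Of 11 genes listed as inhibitors 4 rose over both fractions. Tnip1 rose by 0.71 (adjusted p = 0.00366) and Tnfaip3, which encodes the deubiquitinase A20, by 0.62 (adjusted p = 0.00821). Tank rose by 0.50 (adjusted p = 0.0191), and Nfkbiz, which does not act only as an inhibitor, by 0.52 (adjusted p = 0.0271). Of 10 transcription factors 3 rose, all of them NF-κB subunits: Rel by 0.88 (SE 0.084, adjusted p = 0.000135), Relb by 0.81 (adjusted p = 0.0428) and Nfkb2 by 0.57 (adjusted p = 0.00356). Rel rose in c-kit+ cells (0.86, adjusted p = 0.00771) and in CD44+ cells (0.89, adjusted p = 0.00433) too. Relb lost its call without any 1 of 9 arrays (adjusted p up to 0.150), Nfkbiz without any 1 of 9 (up to 0.0883) and Tank without any 1 of 5 (up to 0.0712), and in c-kit+ cells Rel lost its call in a fit of those 6 arrays alone (adjusted p = 0.0999). Of 22 genes that macrophages induce on Toll-like receptor signalling 14 rose over both fractions, 9 in c-kit+ and 8 in CD44+ cells, among them Cxcl10 (1.57 over both), Cd40 (1.41), Ptgs2 (1.37) and Il12b. The value of Il12b was 2.34 over both, but it read 4.05 to 5.27 on the 6 control arrays, all below the highest Y-linked probe set, so the size of its rise is uncertain. Il6 rose in c-kit+ cells by 2.66 (adjusted p = 0.000887); its control arrays, with a mean of 4.04, were below that level too. Ifnb1 passed in both fractions and Il23a in c-kit+ cells, and their control and 17βE means there were also below the highest Y-linked probe set. In c-kit+ cells these means were 4.89 and 5.77 for Ifnb1 and 4.72 and 5.80 for Il23a, so the size of these rises is uncertain too. With 1 array left out, the 14 became 12 to 15, and in the 6 c-kit+ arrays alone the 9 became 1. Between the fractions 1 of the 78 genes passed in control cultures, where 2.30% of all genes passed. It was Clec7a, a receptor for fungal glucans that acts with Tlr2, higher in c-kit+ cells by 0.70 (adjusted p = 0.0401). Clec7a lost this call without any 1 of 10 arrays (adjusted p from 0.0556 to 0.194). In 17βE cultures 0 of the 78 passed, where 2.65% of all genes passed in either direction. The difference of effects passed for 0 of the 78 and for 0% of all genes.

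**Figure D5:**
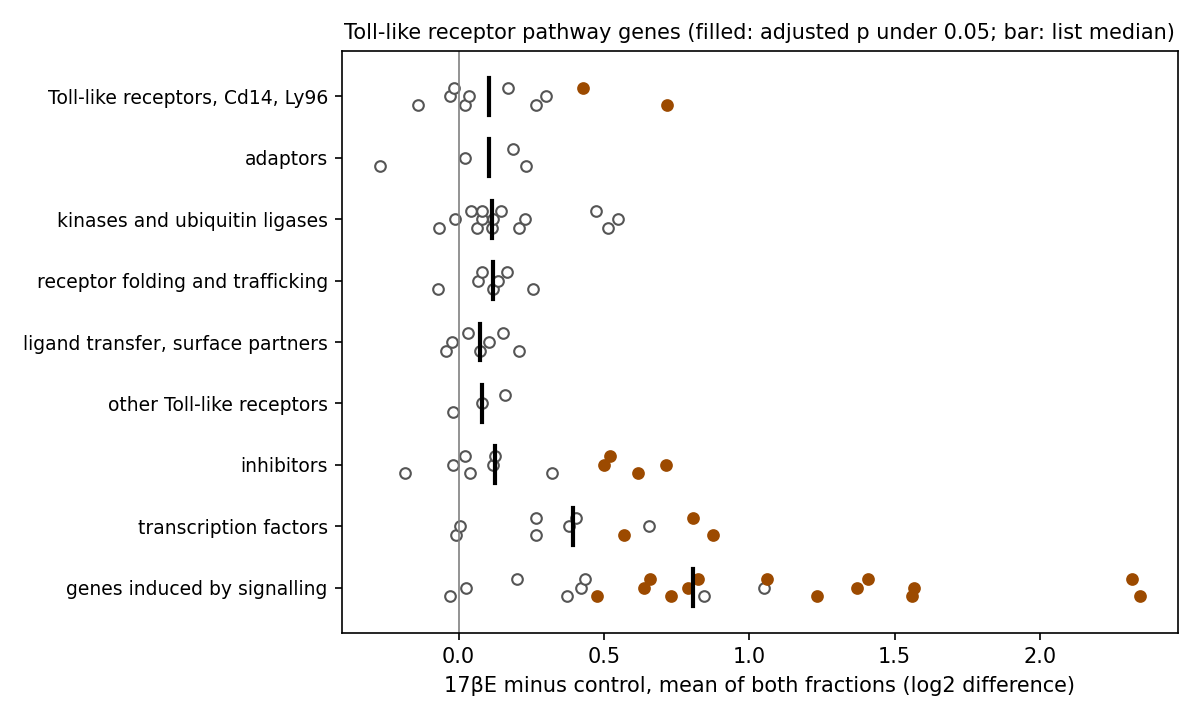
Log2 difference between 17βE and control cultures, as the mean of both fractions (horizontal axis), for the 10 genes and the 8 pathway lists, with 1 point per gene and a bar at the median of each list. Filled points mark an adjusted p under 0.05, and they lie among the 10 genes (2), the inhibitors (4), the transcription factors (3) and the genes induced by signalling (14).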

How the data were processed

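Per the labels, total RNA went through an Affymetrix two-cycle amplification with biotin labelling. The authors deposited log2 values made with RMA, per the submitters' processing notes; the version and settings are not given in the sources used here. RMA corrects background, normalizes probe intensities by quantiles and summarises a probe set over its probes. Levels of different probe sets are thus not comparable as amounts of RNA. The background level and the marker sums, which set probe sets against each other or add them, are therefore only rough guides. Values were used as deposited, with no filter, and precision is limited by the number of arrays.

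Of 45101 probe sets 34945 named 1 gene in the platform annotation and gave 18193 genes. Genes were tested with limma 3.58.1 (R 4.3.3) over all 12 arrays, with 1 mean per group, empirical Bayes moderation without a trend and Benjamini-Hochberg adjustment over all genes at 0.05. The 6 comparisons were 17βE minus control in each fraction, their mean and their difference, and c-kit+ minus CD44+ in control cultures and in 17βE cultures. SE, intervals and p-values come from this fit. Figures were drawn with matplotlib 3.10.9, and the scripts were tested on simulated data. The members and gene lists were chosen with earlier results of these data known. From each pathway list the text names up to 4 genes that passed, by smallest p in a comparison, else the gene of smallest p over both fractions, and for each member that passed the 5 genes of highest r. Ifnb1 and Il23a are named besides for their low levels.

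Replicate numbers were taken to pair arrays where the deviations of equal numbers from their group means all correlated above 0.1. CD44+ control and 17βE arrays met this (0.303, 0.368 and 0.322), as did 17βE arrays across the fractions (0.447, 0.192 and 0.312). The c-kit+ arrays (0.345, 0.0916 and 0.253) and control arrays across the fractions (0.175, 0.122 and -0.208) did not. Each c-kit+ control array still correlated most with the c-kit+ 17βE array of its own number, so the missed criterion does not show that these arrays were unpaired. The replicate block was a term for replicate number in the fit of all 12 arrays, so it also joined groups that missed the criterion. Tried as alternatives were gene values averaged over probe sets, a restriction to brighter genes, quantile normalization, centring on array medians, moderation with a trend and robust variances, weighted arrays, the replicate block, fits of only the 6 arrays compared, thresholds of 0.1 and 0.01, and each array left out in turn.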

Additional observations from a re-analysis of the deposited data

How the results depend on the processing

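The differences of the 10 genes described above had 996 values under the alternatives. Differences not described were left out, among them Tlr3 (-0.028), Tlr9 (-0.015) and Ly96 (0.021) over both fractions, which lie near 0. Of the 996, 949 kept their direction and their side of the threshold, 10 lost and 11 gained the call, and 26 turned sign. None of those that turned sign was past the threshold or larger than 0.19 in size. The cause was not tested. In the main fit only Tlr2 in CD44+ cells and over both fractions, Cd14 over both fractions and Tlr1 between the control fractions passed. All other differences had no call to lose, and the thresholds of 0.1 and 0.01 reuse the main fit, so no direction could turn there. The 949 of 996 are thus no measure of how stable the calls were. In c-kit+ cells 1 of the 10 genes passed, Tlr2, after quantile normalization (0.62, adjusted p = 0.0345), with array weights (0.67, adjusted p = 0.0412), with the replicate block (adjusted p = 0.0458) and at a threshold of 0.1. Of all genes 33 passed there, and 55 with weights, 62 with the block, 2 with the 6 arrays alone, 54 at 0.1, 19 at 0.01 and 10 to 45 with an array left out. In CD44+ cells array weights gave 3 of the 10 genes (Tlr2, Cd14 and Tlr6) and 1405 of all genes in place of 53. The block gave 101, a threshold of 0.1 gave 88 and one of 0.01 gave 27. With an array left out it was 22 to 97 and 0 to 1 of the 10. Over both fractions 173 genes passed, and 523 with weights, 272 with the block, 87 at 0.01 (1 of the 10, Tlr2) and 104 to 275 with an array left out (1 to 2 of the 10). With weights Tlr6 passed too (0.35, adjusted p = 0.0122).

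Between the fractions in control cultures Tlr2 joined Tlr1, which makes 2 of the 10 genes, with the mean of probe sets (adjusted p = 0.0424), median centring (0.58, adjusted p = 0.0352), the block (adjusted p = 0.0295) and a threshold of 0.1. With the 6 arrays alone or at 0.01 it was 0, and with an array left out 0 to 1. Of all genes 418 passed, and 1058 with weights, 693 with the block, 196 with the 6 arrays, 671 at 0.1, 203 at 0.01 and 221 to 456 with an array left out. In 17βE cultures 483 passed, and 250 among the brighter genes, 779 with weights, 274 at 0.01 and 269 to 594 with an array left out. The pairing by replicate number changed no other call of the 10 genes.

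Among the values counted above signs turned as follows. In c-kit+ cells Tlr3 had 0.037 with weights and -0.34 to 0.14 with an array left out, Tlr8 -0.12 to 0.14, Tlr9 -0.12 to 0.067 and Ly96 -0.095 to 0.24. In CD44+ cells Tlr3 had -0.0019 with the mean of probe sets and -0.029 with weights, and Tlr9 -0.13 with weights. With an array left out Tlr9 had -0.071 to 0.083, Tlr8 -0.064 to 0.12 and Ly96 -0.16 to 0.0028. Between the fractions in control cultures Cd14 had -0.059 after quantile normalization, -0.0012 with weights and -0.030 to 0.12 with an array left out. Ly96 had 0.010, 0.095 with centring, 0.12 with weights and -0.14 to 0.19, Tlr8 -0.015 to 0.14 and Tlr9 -0.012 to 0.18. Of 80 group levels 14 moved by over 1 SD, 12 with the mean of probe sets and 2 after quantile normalization. Levels of Tlr8 and Tlr9 near background limit what can be seen of them.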
